A study of Homo sapiens with 6 samples.

Results

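Secreted Wnt inhibitors, Wnt ligands and the Wnt target gene AXIN2 were examined in LX-2, an established and immortalized human hepatic stellate cell line. The group comprised 10 genes: the inhibitors SFRP1, SFRP2, SFRP4, DKK1, DKK2 and DKK3, the ligands WNT5A, WNT5B and WNT2B, and AXIN2. They were found by gene symbol among 27830 genes, and 8 of them had a row. SFRP2 and SFRP4 had none and were not analysed here. The genes were chosen on the basis of earlier results of the same comparison that is described below, in which SFRP1 and DKK1 had stood out, so their differences are given as a description and not as a test. Of the 8 genes, 6 passed the filter on low counts.

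The study compared 3 control samples, which were left untreated, with 3 that received TGF-β1 (transforming growth factor beta 1), the main fibrogenic cytokine of the liver, at 10 ng/ml for 24 h. All 6 samples were of this single line, and treatment took place without serum. The medium of the controls over the same time is not stated in the sources used here, so the effects of the cytokine and of serum cannot be told apart. Whether the replicates came from independent cultures is not stated either, so errors and p-values cover the spread of these libraries alone, and that spread may be technical.

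Wnt ligands are secreted lipid-modified proteins that bind Frizzled receptors. With the co-receptors LRP5 and LRP6 they stabilize β-catenin, which enters the nucleus and activates targets such as AXIN2, itself a brake on the pathway. WNT5A and WNT5B mostly act through other routes, by ROR2 and the planar polarity proteins. Secreted Frizzled-related proteins (SFRP) bind Wnt ligands, and Dickkopf proteins (DKK) such as DKK1 bind LRP5 and LRP6. In the liver, Wnt signals have been studied as part of stellate cell activation.

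The libraries held 13866957 to 17694675 counts. FN1 (fibronectin) and TAGLN (transgelin), which are known to respond to TGF-β1, had log2 differences of 1.85 and 1.64. Of 18 stellate and fibroblast markers, VIM, COL1A1, COL3A1 and PDGFRB had at least 660 counts in every library. COL3A1, a fibrillar collagen, was the marker called, and higher (95.1 and 155.8 CPM, counts scaled to library size; log2 difference 0.71). ACTA2, smooth muscle actin, was low and not called (log2 difference -0.08 ± 0.24, SE), COL1A2 had 29 to 48 counts per library and PDGFRA 6 to 12. The markers LUM (4 to 14 counts per library), LRAT (0 to 2), DES (1 to 5), CYGB (1 to 8) and DCN (1 to 6) were near 0. The 18 markers summed to 2855.1 to 3030.0 CPM in the controls and 2976.7 to 3378.9 CPM with TGF-β1. The summed level of the 3 hepatocyte markers with a row, of 6, was 50.2 to 53.8 CPM in the controls and 55.9 to 71.7 CPM with TGF-β1, nearly all of it from CPS1 and SERPINA1, while ALB, TTR and HNF4A had no row. That of the 4 leukocyte markers with a row, of 6, was 24.9 to 31.6 and 20.0 to 22.4 CPM, nearly all from CD14 and ITGAX, with PTPRC at 3 to 16 counts per library. Epithelial sums (541.5 to 684.5 and 416.6 to 605.9 CPM) overlapped between the groups. Nearly all of this came from KRT8 and KRT18, while EPCAM was at 0 to 1 count. Endothelial sums (437.0 to 464.9 and 419.0 to 449.8 CPM) overlapped too. Nearly all of this came from TIE1 and FLT1, with PECAM1 at 29 to 58 counts per library and CDH5 at 0 to 4. The part of these shifts in the results was not tested. Transcripts of low GC content also differed between libraries: over 2180 genes with up to 40% GC in the longest transcript, the median log2 deviation was -0.0781, -0.428 and -0.0887 in control replicates 1 to 3, while the treated replicates had 0.638, 0.202 and -0.185. Differences of the tested genes of the group are therefore also given with this trend removed.

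SFRP1 (ENSG00000104332), which encodes a secreted Frizzled-related protein that binds Wnt ligands and so keeps them from Frizzled receptors, was lower with TGF-β1. SFRP1 had 549.4, 548.7 and 630.6 CPM in control replicates 1 to 3, against 267.9, 200 and 276.7 CPM in the treated replicates. All treated libraries lay below all controls, and the highest treated library was well under the lowest control. The log2 difference was -1.22 ± 0.15 (SE, n = 3 per group), 2.32-fold lower, and -1.18 with the GC trend removed. In bulk RNA, fewer cells of a kind and less RNA per cell cannot be told apart. By deposited FPKM, SFRP1 ranked 281 of 27830 genes in the controls and 786 with TGF-β1. SFRP1 is a minus-strand gene (GRCh38, chromosome 8, 41261958 to 41309497), and none of its exon bases overlaps another gene.

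DKK1 (ENSG00000107984), an antagonist of the co-receptors LRP5 and LRP6, moved in the same direction. DKK1 had 237.6, 202.5 and 259.3 CPM in the controls against 124.9, 120.7 and 124.0 CPM with TGF-β1. The treated libraries lay close together, with a coefficient of variation of 1.78% against 12.3% in the controls, and did not overlap the controls. Each of these spreads rests on 3 libraries, and whether they differ was not tested. The log2 difference was -0.92 ± 0.13 (SE, n = 3 per group), 1.89-fold lower, and -1.06 with the GC trend removed. By deposited FPKM, DKK1 ranked 339 in the controls and 741 with TGF-β1. DKK1 lies on chromosome 10 from 52314296 to 52318042 (GENCODE, plus strand). Of its exon bases, 9.6% overlap PRKG1-AS1 on the opposite strand, whose reads cannot be told from those of DKK1 without strand information.

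The promoter of DKK1 is shown because DKK1 was 1 of the 2 called genes of the group, and that of WNT5A because its level split the treated libraries, as described below. Both are the 250 bases before a RefSeq start on GRCh38.p14, read 5′ to 3′ on the strand of the gene, with motif matches in capitals. The DKK1 window is chr10:52314031-52314280 on the plus strand and lies wholly within an exon of PRKG1-AS1. The WNT5A window is chr3:55481399-55481648 on the minus strand, before 1 of the 2 RefSeq starts of this gene in the table, and holds no GENCODE exon.
DKK1: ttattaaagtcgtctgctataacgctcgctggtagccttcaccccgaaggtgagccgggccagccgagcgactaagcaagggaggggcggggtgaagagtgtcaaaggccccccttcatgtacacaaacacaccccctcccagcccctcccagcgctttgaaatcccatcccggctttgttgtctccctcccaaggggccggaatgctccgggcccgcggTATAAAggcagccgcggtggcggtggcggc
WNT5A: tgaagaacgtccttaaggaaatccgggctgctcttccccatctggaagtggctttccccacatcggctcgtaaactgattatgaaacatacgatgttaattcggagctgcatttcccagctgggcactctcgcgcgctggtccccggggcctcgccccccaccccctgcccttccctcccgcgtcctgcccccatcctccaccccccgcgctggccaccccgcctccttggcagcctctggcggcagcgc

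The windows of DKK1, WNT5A, WNT5B and WNT2B were searched on both strands, and those of SFRP1, DKK2, DKK3 and AXIN2 were not analysed here. The search was for the TCF/LEF motif CTTTGAT, the SMAD motifs GTCTAGAC and GGCGCC, and the TATA box TATAAA. No matches overlapped each other. DKK1 held a TATA box whose first base lies at -30 from the RefSeq start, and 10.7% of 35116 promoter windows of this length hold these letters on either strand. WNT5A held none of the 4 motifs in the printed window, nor in that of its other start. Among the windows of WNT5B and WNT2B (2 starts each), the only match was a TATA box on the opposite strand at -78 before 1 start of WNT5B. The TCF/LEF letters, present in 2.26% of all windows, and the SMAD letters, in 0.182% and 16.4%, were found in none of these windows. Only these exact letters were searched, so sites that differ from them by a base were not covered.

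DKK3 (ENSG00000050165), a divergent Dickkopf family member whose role in Wnt signalling is less settled, did not share this pattern. DKK3 had 510.5, 547.0 and 499.2 CPM in the controls against 482.8, 519.0 and 592.1 CPM with TGF-β1. The groups overlapped, with the lowest and the highest of the 6 libraries both among the treated. The log2 difference was 0.03 ± 0.12 (SE; 95% interval -0.23 to 0.30), and 0.12 with the GC trend removed. Its exons, on chromosome 11 from 11963106 to 12009769 on the minus strand, overlap no other gene.

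DKK2 (ENSG00000155011), another antagonist of LRP5 and LRP6, had 0, 2 and 1 counts in the controls against 4, 1 and 2 in the treated libraries, and was not tested. Apart from the 4 counts of TGF-β1 replicate 1, these lie at or under the floor of 3 counts, so no difference was detectable at this depth.

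**Figure D1:**
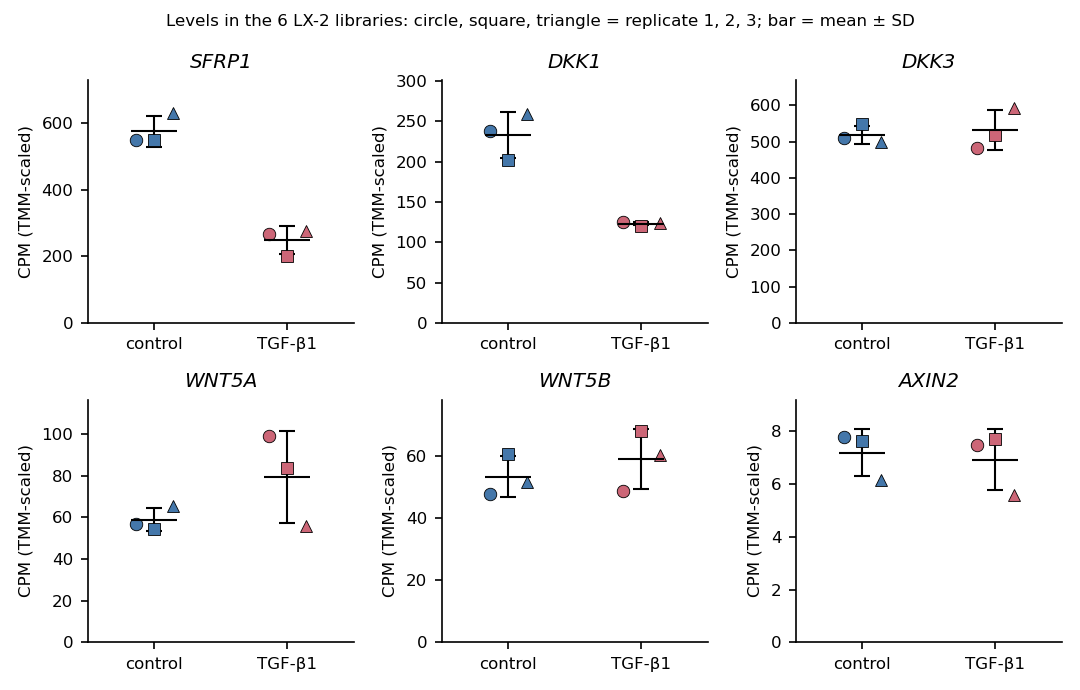
Levels of the 6 tested genes in CPM (counts scaled to library size by TMM, linear axes from 0), with 1 marker per library (circle, square and triangle for replicates 1 to 3) and the mean ± SD of 3 libraries. SFRP1 and DKK1 are lower in all treated libraries, and WNT5A separates TGF-β1 replicate 3 (55.7 CPM) from replicates 1 and 2 (99.3 and 83.9 CPM).

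Of the ligands, WNT5A (ENSG00000114251), which signals largely through ROR2 and other β-catenin-independent routes, differed among the treated libraries. WNT5A had 56.9, 54.7 and 65.4 CPM in the controls against 99.3, 83.9 and 55.7 CPM with TGF-β1. TGF-β1 replicates 1 and 2 lay above all controls, and replicate 3 lay within the control range. The log2 difference was 0.43 ± 0.19 (SE; 95% interval 0.01 to 0.86, not adjusted for the number of genes). It was 0.63 without TGF-β1 replicate 3 and passed the call threshold in that setting alone, and 0.24 without replicate 1. With the GC trend removed it was 0.20, and 0.31 when replicate 3 was left out as well, not called. The longest transcript of WNT5A has 42.3% GC, a little above the 40% that bounds the low-GC set. That bound belongs to the summary of low-GC genes only, as the trend was fitted over genes of all GC contents. The part of GC content in the split of the treated libraries was not tested. WNT5A lies on chromosome 3 from 55465715 to 55490539 on the minus strand, with no exon overlap.

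WNT5B (ENSG00000111186), the closest relative of WNT5A, had 47.7, 60.7 and 51.7 CPM in the controls against 48.9, 68.0 and 60.5 CPM with TGF-β1. The groups overlapped, and replicate 2 was the highest library in each. The log2 difference was 0.15 ± 0.16 (SE; 95% interval -0.20 to 0.50), and 0.26 with the GC trend removed. The longest transcript of WNT5B, on chromosome 12 from 1529891 to 1647243, has 58.6% GC, above that of WNT5A.

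The balance of these ligands differed between libraries. The ratio of WNT5A to WNT5B in deposited FPKM was 0.708, 0.534 and 0.750 in the controls against 1.20, 0.732 and 0.546 with TGF-β1. By FPKM, WNT5A exceeded WNT5B in TGF-β1 replicate 1 alone, and the groups overlapped. Per length of the longest transcript, the scale described below, WNT5A was under WNT5B there too, as the range of WNT5A with TGF-β1 (8.84 to 16.3) lay below that of WNT5B (21.5 to 30.2). WNT5A and WNT5B made up 66.1% to 69.1% of the summed FPKM of 17 Wnt ligand genes in the controls and 66% to 71.3% with TGF-β1.

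WNT2B (ENSG00000134245), a ligand of the β-catenin branch, was close to the limit of detection. It had 1, 8 and 1 counts in the controls against 5, 4 and 8 in the treated libraries, and was not tested. The groups overlapped, and 21.2% of the exon bases of WNT2B overlap ST7L on the opposite strand.

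AXIN2 (ENSG00000168646), the feedback target of β-catenin, was low and differed little. AXIN2 had 7.78, 7.64 and 6.16 CPM in the controls against 7.47, 7.71 and 5.59 CPM with TGF-β1. The groups overlapped, and replicate 3 was the lowest library in each. The log2 difference was -0.05 ± 0.21 (SE; 95% interval -0.50 to 0.40), and 0.05 with the GC trend removed. Of the exon bases of AXIN2 (chromosome 17 from 65528563 to 65561647, minus strand), 25.2% are shared with AC004805.1 on the same strand, so reads there could belong to either.

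Of the 6 tested genes, 2 were called lower (SFRP1 and DKK1) and 0 higher, against 0.18% lower and 0.187% higher (0.366% in all) of the 14463 genes tested by edgeR. The same 2 genes were those whose treated libraries all lay below the controls, which held for 9.12% of all genes tested. These counts describe how the genes came to be chosen. SFRP1 stayed negative and was called in 23 of 24 alternatives, and was not called without TGF-β1 replicate 2 (log2 difference -1.08). DKK1 stayed negative in all 24 and was called in 21. It was not called without control replicate 1 (-0.91), control replicate 3 (-0.85) or TGF-β1 replicate 2 (-0.91). DKK3, WNT5B and AXIN2 were called in 0 of 24.

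**Figure D2:**
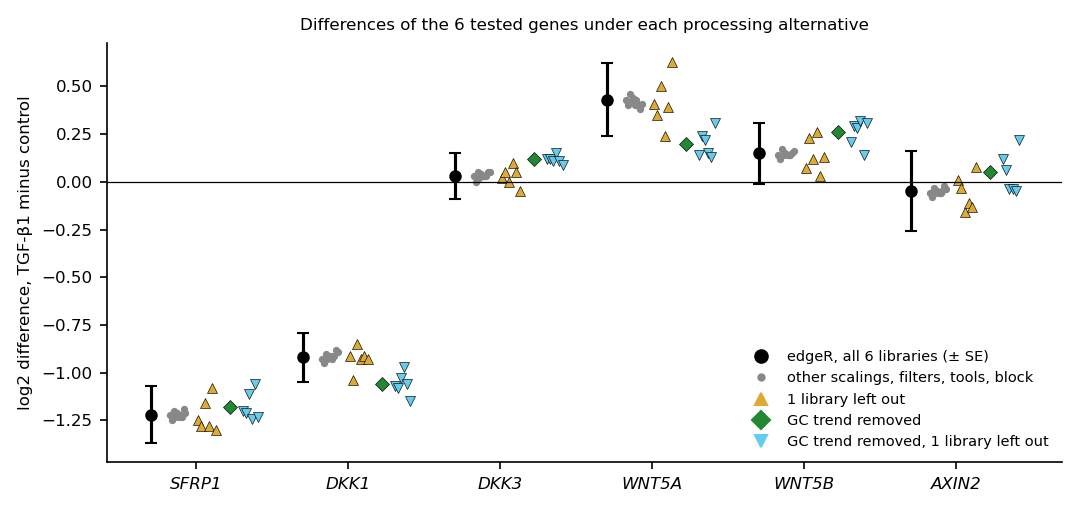
Log2 difference (TGF-β1 minus control) of the 6 tested genes with all libraries (black, ± SE) and under each processing alternative, with 1 marker per alternative. SFRP1 (-1.30 to -1.06) and DKK1 (-1.15 to -0.85) stay below 0 throughout, WNT5A runs from 0.13 to 0.63, and DKK3 and AXIN2 lie on both sides of 0.

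Levels were compared between genes per length. In deposited FPKM, the order in the controls was SFRP1 (120.8 ± 11.4, SD, n = 3), DKK1 (104.3 ± 14.6), DKK3 (43.0 ± 1.23), WNT5B (12.5 ± 1.33), WNT5A (8.19 ± 0.905) and AXIN2 (1.36 ± 0.161). The ranges of SFRP1 and DKK1 overlapped, and no other neighbours among these did. With TGF-β1 the order was DKK1 (55.8 ± 1.09), SFRP1 (52.6 ± 8.06), DKK3 (44.6 ± 3.85), WNT5B (14 ± 2.38), WNT5A (11.2 ± 3.28) and AXIN2 (1.34 ± 0.250). The ranges of SFRP1 overlapped those of DKK1 and of DKK3, and WNT5A and WNT5B overlapped too. WNT2B and DKK2 were last in both groups, with overlapping ranges and means of 0.0134 to 0.0347 FPKM.

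The place of DKK3 in that order depended on the gene length. The length implied by its FPKM was 11958 bases, whereas the longest DKK3 transcript of GENCODE has 2650 bases and all its annotated exons together 5059. The implied lengths of SFRP1 (4733 bases) and DKK1 (2221) were close to the exon totals of 4761 and 2206. With the length of the longest GENCODE transcript in place of the implied length, DKK3 came first in both groups, at 194.1 ± 5.57 and 201.3 ± 17.4 (SD, n = 3). DKK1 followed at 129.4 ± 18.2 and 69.2 ± 1.35, and SFRP1 at 127.3 ± 12 and 55.4 ± 8.50. On this scale the range of DKK3 overlapped neither of them. DKK1 and SFRP1 overlapped in the controls but not with TGF-β1, and WNT5B, WNT5A and AXIN2 followed in this order with no overlap. Differences between the groups do not depend on the length used.

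**Figure D3:**
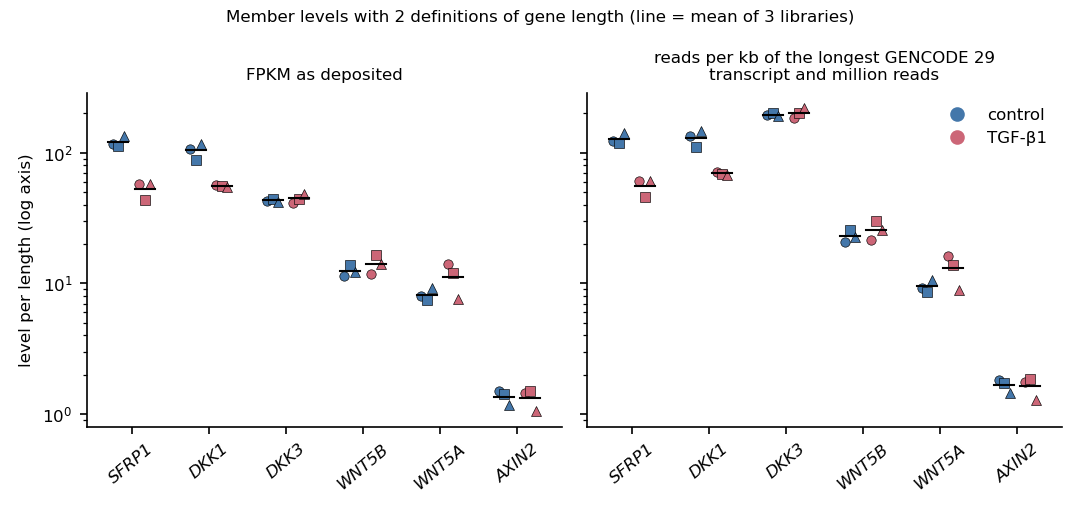
Level per length of 6 genes in each library (log axis), as deposited FPKM on the left and per kilobase of the longest GENCODE 29 transcript on the right, with lines at the mean of 3 libraries. DKK3 lies below SFRP1 and DKK1 in the controls by FPKM (43.0) and above them with the other length (194.1).

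As a sum, SFRP1, DKK1 and DKK3 had 266.2, 245.2 and 293.0 FPKM in the controls against 155.0, 143.5 and 160.5 FPKM with TGF-β1. The 17 Wnt ligand genes together had 29.1, 31.7 and 31.0 FPKM in the controls against 36.4, 39.9 and 32.8 FPKM with TGF-β1. The ratio of the inhibitor sum to the ligand sum was 9.15, 7.75 and 9.45 in the controls against 4.26, 3.60 and 4.90 with TGF-β1. The inhibitor sum was lower in all treated libraries. The ligand sum was higher in all of them, though by little in TGF-β1 replicate 3 (32.8 FPKM, against 31.7 in control replicate 2). The GC trend was not removed from these sums. With it removed, the log2 difference of WNT5A was 0.20 in place of 0.43. SFRP1 and DKK1 were chosen for their own fall, and the ratio depends on the gene lengths used.

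The genes whose pattern over the 6 libraries was most like that of SFRP1 were taken by the root mean square difference of centred log2 CPM, among 10642 other genes with a symbol and at least 5 CPM. They were MYPN (0.139; log2 difference -0.99), CPA4 (0.148; -1.48), COL4A6 (0.151; -0.98), GPRC5A (0.176; -0.89) and CRISPLD2 (0.179; -0.91). DKK1 was at rank 12 of this list, with 0.218. For DKK1 the nearest were MEST (0.090; log2 difference -0.78), F3 (0.091; -1.06), NTN4 (0.111; -0.78), MMP1 (0.120; -0.86) and ADM (0.121; -1.01), and SFRP1 was at rank 48. All 10 genes were lower with TGF-β1, which their choice by likeness to SFRP1 and DKK1 fixed. CPA4 is a carboxypeptidase, COL4A6 a basement membrane collagen chain, F3 tissue factor, NTN4 a netrin, MMP1 interstitial collagenase and ADM adrenomedullin.

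The rest of the pathway was read from 6 lists of 103 other genes, of which 92 had a row and 75 were tested. In the edgeR fit 0 of the 75 were called in either direction. At an unadjusted p under 0.05 there were 10, with 4 higher and 6 lower (13.3%, against 15.6% of all genes tested). Over all genes there were 1612 higher and 650 lower. The 10 genes of the lists are too few to be compared with these in direction. With the GC trend removed, the genes called over the whole table were 219 higher and 217 lower. The median log2 difference of the 75 genes in the main test was -0.05, against 0.01 over all genes. DESeq2, which gave no adjusted p to 3 of the 75, called 2, against 4.61% of the 13341 genes to which it gave an adjusted p. With the GC trend removed edgeR called 2, against 3.01% of all genes tested, and limma voom called 0, against 0.38%. The 2 genes were APC and WNT7A in both cases, named here after their values were seen. Neither count is above the share over all genes.

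Among other secreted regulators, 3 of 13 were tested. IGFBP4, an insulin-like growth factor binding protein also reported to bind Wnt receptors, had 972.8 ± 153.0 and 855.1 ± 132.6 CPM (SD, n = 3; edgeR adjusted p = 0.591). RSPO4, an R-spondin that enhances Wnt signalling, had 10.3 ± 2.27 and 11.1 ± 0.842 CPM (edgeR adjusted p = 0.840). FRZB, a Frizzled-related protein akin to SFRP1, had 1.75 ± 0.606 and 1.09 ± 0.188 CPM (edgeR adjusted p = 0.365). Per length, FRZB was at 0.656 ± 0.213 FPKM in the controls, far under SFRP1.

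Among other ligands and their secretion factors, 10 of 18 were tested. WLS, which carries Wnt proteins to the surface, had 191.7 ± 12.7 and 163.6 ± 13.9 CPM (edgeR adjusted p = 0.394), and PORCN, which attaches their lipid, 34.0 ± 2.58 and 26.6 ± 2.57 CPM (edgeR adjusted p = 0.298). WNT7A, a ligand of low level here, had 13, 8 and 6 counts in the controls against 19, 46 and 24 in the treated libraries. All treated libraries of WNT7A lay above the controls, with a log2 difference of 1.72 ± 0.45 (SE; edgeR adjusted p = 0.135). It was 1.83 with the GC trend removed (edgeR adjusted p = 0.0474) and 1.71 by DESeq2 (adjusted p = 0.0383). Over its 24 alternatives the adjusted p of WNT7A ran from 0.00188 to 0.41.

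Among receptors and co-receptors, 16 of 20 were tested. PTK7, a co-receptor of the polarity branch, had 362.1 ± 44.1 and 345.8 ± 37.4 CPM (edgeR adjusted p = 0.840). FZD2, a receptor of WNT5A among other ligands, had 116.6 ± 3.29 and 105.2 ± 12.1 CPM (edgeR adjusted p = 0.611). It led the Frizzled genes by FPKM, at 30.6 ± 0.430 in the controls, before FZD8 (20.2 ± 1.57) and FZD7 (19.3 ± 0.319). The 9 Frizzled genes with a row summed to 84.0 to 85.2 FPKM in the controls and 79.3 to 86.6 FPKM with TGF-β1. ROR2, the receptor tyrosine kinase of WNT5A, named after its values were seen, had 57.3, 65.6 and 61.7 CPM in the controls against 40, 44.2 and 56.9 CPM in the treated libraries. These did not overlap, and the log2 difference of -0.39 ± 0.16 was not called (edgeR adjusted p = 0.264). ROR2 was called without TGF-β1 replicate 3 (-0.55, edgeR adjusted p = 0.0319), also with the GC trend removed (-0.38, adjusted p = 0.0346). Over its 24 alternatives the adjusted p of ROR2 ran up to 0.602.

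Among intracellular components, 27 of 27 were tested. CTNNB1, which encodes β-catenin, had 447.7 ± 39.1 and 417.7 ± 31.7 CPM (edgeR adjusted p = 0.731), and TLE5, of the Groucho co-repressor family, 232.7 ± 19.0 and 213.1 ± 17.4 CPM (edgeR adjusted p = 0.658). CTNNB1 was called lower with the GC trend removed and TGF-β1 replicate 3 left out (log2 difference -0.30, edgeR adjusted p = 0.039). APC, the scaffold of the complex that degrades β-catenin, had 8.84, 9.62 and 12.9 CPM in the controls against 43.2, 20.9 and 17.3 CPM with TGF-β1. All treated libraries of APC lay above the controls, with replicate 1 far above the others. The log2 difference of APC was 1.38 ± 0.32 (SE; edgeR adjusted p = 0.105), and 0.87 without TGF-β1 replicate 1 (adjusted p = 0.00367). It was 0.98 with the GC trend removed (edgeR adjusted p = 0.0248) and 1.37 by DESeq2 (adjusted p = 0.00044). Over its 24 alternatives the adjusted p of APC ran from 2.39e-08 with no filter to 0.358 without control replicate 1. The longest APC transcript has 39.6% GC, within the low-GC set whose deviation was highest in TGF-β1 replicate 1. The part of GC content in the level of that library was not tested.

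Other targets and feedback genes of β-catenin were, like AXIN2, not called in the main test (0 of 9 tested of 14, and 0 at an unadjusted p under 0.05). CD44, a hyaluronan receptor, had 1540.7 ± 82.1 and 1300.3 ± 98.2 CPM (edgeR adjusted p = 0.339). All treated libraries of CD44 lay below the controls, which held for 9.12% of all genes tested. CD44 was called lower with the GC trend removed and TGF-β1 replicate 3 left out (log2 difference -0.40, edgeR adjusted p = 0.0152). That setting called 1422 genes in all. CCND1, cyclin D1, had 882.9 ± 49.5 and 906.1 ± 62.4 CPM (edgeR adjusted p = 0.902). The log2 differences of the 9 genes ran from -0.24 to 0.49, with a median of 0.04. In the planar polarity branch, 10 of 11 genes were tested. SCRIB had 142.7 ± 16.8 and 143.7 ± 24.7 CPM (edgeR adjusted p = 0.982), and the cadherin CELSR2 148.5 ± 8.83 and 112.6 ± 24.2 CPM (edgeR adjusted p = 0.251). CELSR2 was called without TGF-β1 replicate 3 (log2 difference -0.57, edgeR adjusted p = 0.0219).

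**Figure D4:**
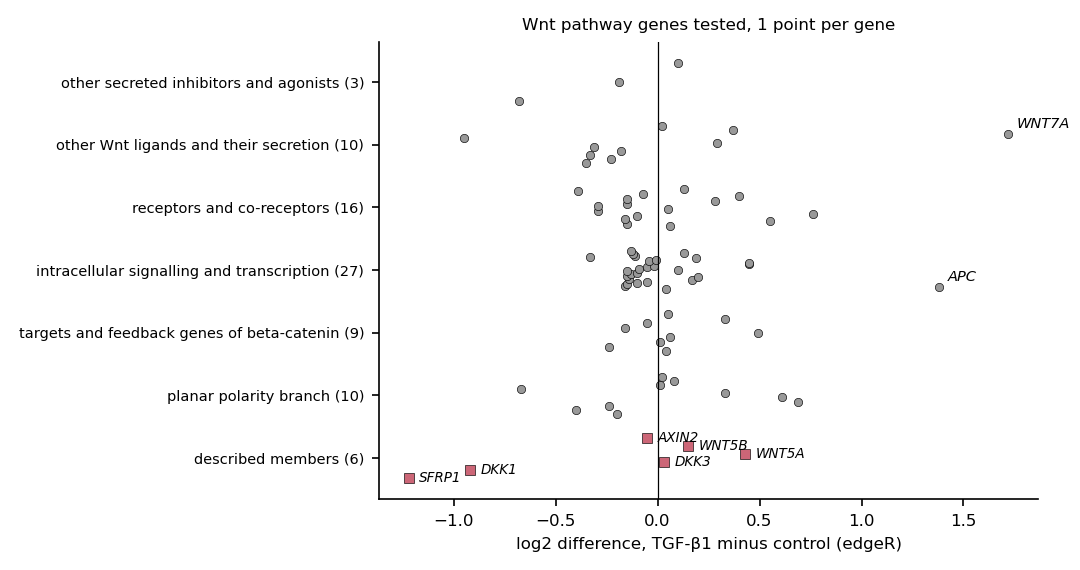
Log2 difference (TGF-β1 minus control, edgeR) of the 75 other Wnt pathway genes tested, in 6 lists with the number of genes in brackets, above the 6 described genes (squares). The pathway genes run from -0.95 to 1.72 with a median of -0.05, and WNT7A and APC lie highest.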

How the data were processed

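RNA sequencing values of 6 LX-2 samples were read from 1 table of 27830 genes. Per the file headers, the authors deposited for each sample a raw read count per gene and an FPKM value (reads scaled by gene length and library size). HISAT2, HTSeq 0.13.5 and GRCh38 are named, with no role or order, in the submitters' processing notes. The annotation release and strand setting are not given in the sources used here. Each gene's deposited FPKM and count implied 1 gene length in all libraries (17153 of 17153 genes with counts throughout, within 0.1%).

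The main test was edgeR's quasi-likelihood test (version 4.0.16, R 4.3.3; TMM factors, robust dispersions) on the 14463 genes left by filterByExpr. Called means a Benjamini-Hochberg adjusted p under 0.05 over all of them. CPM are counts scaled to TMM library size. GENCODE release 29 (GRCh38) gave coordinates, overlaps and GC content for 26968 genes. The script was tested on simulated data. Totals of 13866957 to 17694675 counts put the detection floor of 3 counts at 0.17 to 0.216 CPM, for counting error only.

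Named genes were the 10 members, called genes and the 2 highest genes of each pathway list, and the 5 genes most like SFRP1 or DKK1. FN1, TAGLN and the cell type markers were set in the plan as well. Other genes were chosen after their values were seen. Members and lists were chosen with earlier results of these data known. Alternatives were other scaling factors, filters and tools (DESeq2 1.42.0, limma 3.58.1), a replicate block, each library left out and a GC trend (loess, span 0.5) removed. The GC removal with 1 library left out, lengths of the longest GENCODE transcript and the TATA box were chosen after seeing the data. A comparison of member proteins was not made.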

Additional observations from a re-analysis of the deposited data

How the results depend on the processing

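The number of genes called was 53 of 14463 (27 higher, 26 lower) and that of other Wnt pathway genes called was 0 of 75. These counts changed with the processing: 111 and 0 with upper quartile factors, 1240 (1071 higher) and 4 with no filter, 615 (493 higher) and 2 by DESeq2, 436 and 2 with the GC trend removed, and 272 and 1 with that trend removed and the replicate block. Leaving out 1 library gave 4 to 1671 genes and 0 to 6 pathway genes, with the most without TGF-β1 replicate 3 and the fewest genes (4) without TGF-β1 replicate 2. Control replicates 1, 2 and 3 gave 13, 37 and 15 when left out, and TGF-β1 replicate 1 gave 324. With the GC trend removed as well, leaving out control replicates 1, 2 and 3 gave 94, 153 and 280 genes, and the treated ones 322, 69 and 1422, with 0 to 6 pathway genes. Of the 6 tested members, 0 to 3 were called when 1 library was left out, the fewest when this was TGF-β1 replicate 2 and the most when it was replicate 3. The causes were not tested. Other scalings and filters, limma voom and limma on FPKM kept the first count within 1.5 times and the second at 0. The replicate number as a block gave 527 genes (429 higher) and 2 pathway genes. Over genes, deviations of log2 CPM from the group mean correlated at 0.156, 0.0892 and -0.323 between samples numbered 1, 2 and 3. Whether samples with the same number share a culture or day is not stated, and these values cannot settle it. The block changed no call of a tested member. WNT5A was positive in 24 of 24 alternatives, as was WNT5B, while DKK3 was positive in 22 and AXIN2 in 7. For DKK2 and WNT2B, 3 to 17 counts per group set the limit.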

Other observations

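Several ligands and inhibitors had few counts and were not tested. WNT1 had 3, 14 and 2 counts in control replicates 1 to 3 and 1, 3 and 2 in the treated ones, so that 1 library held most of its reads. Summed over 3 libraries, WNT4 had 8 counts in the controls and 10 with TGF-β1, and WNT8B had 4 and 5. SFRP5 had 4 and 7 counts, DKKL1 5 and 2, and WIF1, a secreted inhibitor that binds Wnt ligands, 0 and 3. These genes were chosen after their values were seen. With WNT5A and WNT5B left aside, WNT3 (3.52 ± 0.483 and 4.35 ± 0.675 FPKM, SD, n = 3) and WNT7B (2.40 ± 0.138 and 3.13 ± 0.407 FPKM) were the highest Wnt ligands in the controls. Neither was called (edgeR adjusted p = 0.470 and 0.349).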
